A study of Mus musculus with 6 samples.

Results

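The genes described here are Ptprz1, Gpr37, Slc44a1, Fut9, Tmem229a and Tmeff1, 6 of 53546 gene features counted by RNA sequencing in mouse tissue. They were picked by name, with their levels in these same libraries already known, as genes linked to glia whose name in the files stands for counts on that gene. Their values in injury and control libraries are therefore a description, and nothing is supported with them. The study has 3 libraries from mice with spinal cord injury and 3 control libraries, all of strain C57BL/6. As tissue the labels name spinal cord and intervertebral disc together, and the series text names retina of mice 21 days old, so the tissue of a given library is not settled by its label. The labels state no time after injury and no type of injury, and nothing says that the libraries come from separate animals, so the spread between them may be technical. Library totals were 2385703 to 2905828 counts after injury and 2615213 to 3921627 counts in control.

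Control 1 and control 2 were unlike control 3 and the injury libraries, and every value below is given library by library for that reason. In both, kidney tubule markers were high and the summed neuron markers low (values at the end). Not every neural marker was nearly missing there. Gad1, a neuron marker, had 6.93, 12.7 and 27.1 CPM in control 1, 2 and 3, against 22.4, 18.3 and 26.4 CPM in injury 1, 2 and 3. Whether control 1 and control 2 hold another tissue or were exchanged cannot be settled from the labels and was not tested, and a difference between injury and these libraries cannot be told apart from one of tissue. A gene name in the files often does not match the position counted, and for 1741 features (3.25%) the position counted and the named gene coincided over 90% or more of the exonic bases, judged on the GRCm38 annotation. All 6 genes are among them. In bulk tissue, fewer cells of a type and less RNA per cell cannot be told apart.

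As background, the receptor phosphatase encoded by Ptprz1 is made by astrocytes and oligodendrocyte precursors, carries chondroitin sulphate chains, binds pleiotrophin, contactin and tenascins, and is also released as the proteoglycan phosphacan. Gpr37 encodes an orphan G protein-coupled receptor that is abundant in oligodendrocytes and restrains their differentiation in mice. Slc44a1 encodes a choline transporter, and choline is a building block of the phosphatidylcholine in membranes such as myelin. Fut9 encodes the fucosyltransferase that makes the Lewis x sugar on brain glycoproteins. Tmeff1 encodes a membrane protein with follistatin-like and EGF-like domains that blocks Nodal signalling in frog embryos. Tmem229a encodes a predicted membrane protein whose role is little studied.

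On chromosome 6 the files place Ptprz1 at 22875501 to 23052915 on the plus strand, with 99.8% of its exonic bases on Ptprz1 exons. Tmem229a (24951140 to 24956296, minus strand) and Gpr37 (25665877 to 25690728, minus strand) follow on the same chromosome. On chromosome 4 lie Fut9 (25609332 to 25800244, minus strand), Tmeff1 (48585174 to 48663131, plus strand) and Slc44a1 (53440413 to 53622478, plus strand). All 6 are protein-coding genes in GENCODE M21. Slc44a1 shares 310 exonic bases with the annotated gene 1700060J05Rik, and the other five share none with another gene.

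The windows of 250 bases before the transcription start that RefSeq gives are shown for 5 of the 6 genes (RefSeq, GRCm38.p6, each read 5′ to 3′ on the strand of its gene), to compare the 3 genes that were almost silent in control 1 and control 2 with those that were not. Capitals mark the GC box GGGCGG, the SOX motifs ACAAAG and ACAATG and the TATA box TATAAA, each searched on both strands, where matches of the same motif may overlap. The first 3 lines are the genes with few counts in control 1 and control 2, and the last lines are genes with more.
Ptprz1: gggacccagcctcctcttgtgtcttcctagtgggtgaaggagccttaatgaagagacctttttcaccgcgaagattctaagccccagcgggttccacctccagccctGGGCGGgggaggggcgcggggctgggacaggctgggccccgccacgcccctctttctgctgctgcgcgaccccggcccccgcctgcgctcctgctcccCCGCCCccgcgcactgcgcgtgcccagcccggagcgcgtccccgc
Gpr37: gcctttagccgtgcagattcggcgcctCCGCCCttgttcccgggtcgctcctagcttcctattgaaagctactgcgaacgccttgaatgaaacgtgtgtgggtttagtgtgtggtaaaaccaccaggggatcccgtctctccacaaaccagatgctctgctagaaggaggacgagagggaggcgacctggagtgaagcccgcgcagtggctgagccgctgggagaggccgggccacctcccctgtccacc
Tmeff1: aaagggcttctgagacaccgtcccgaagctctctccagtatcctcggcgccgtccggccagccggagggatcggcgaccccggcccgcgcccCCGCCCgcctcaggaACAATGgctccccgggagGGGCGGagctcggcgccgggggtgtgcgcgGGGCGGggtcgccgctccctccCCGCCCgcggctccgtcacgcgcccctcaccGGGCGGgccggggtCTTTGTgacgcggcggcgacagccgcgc
Slc44a1: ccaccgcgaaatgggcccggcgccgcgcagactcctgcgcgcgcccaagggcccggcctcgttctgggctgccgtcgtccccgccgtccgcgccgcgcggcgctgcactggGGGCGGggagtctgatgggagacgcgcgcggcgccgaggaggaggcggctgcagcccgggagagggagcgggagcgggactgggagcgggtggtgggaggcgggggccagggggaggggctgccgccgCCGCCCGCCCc
Tmem229a: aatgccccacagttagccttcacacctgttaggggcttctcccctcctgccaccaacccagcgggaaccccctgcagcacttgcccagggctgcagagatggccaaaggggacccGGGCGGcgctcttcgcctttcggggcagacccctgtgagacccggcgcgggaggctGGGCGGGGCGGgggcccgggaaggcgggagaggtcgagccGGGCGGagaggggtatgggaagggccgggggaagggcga
The windows are chr6:22875252-22875501 for Ptprz1, chr6:25689981-25690230 for Gpr37, chr4:48584924-48585173 for Tmeff1, chr4:53440163-53440412 for Slc44a1 and chr6:24956126-24956375 for Tmem229a. All 5 hold more CpG pairs than the median window, with 22 in Ptprz1, 16 in Gpr37, 39 in Tmeff1, 38 in Slc44a1 and 18 in Tmem229a, against a median of 6 over 32841 windows of the same length. The GC box occurred in all 5 windows, 2 times in Ptprz1, 1 time in Gpr37, 5 times in Tmeff1, 3 times in Slc44a1 and 4 times in Tmem229a, and in 32.7% of all windows. ACAAAG and ACAATG occurred 1 time each in Tmeff1 and in none of the other four, against 16.5% and 10.7% of all windows. TATAAA was in none of the 5 and in 12.4% of all windows. The GC box and the CpG count thus did not separate the genes with few counts in control 1 and control 2 from the rest. For Gpr37 and Tmem229a the start in RefSeq lies inside the gene as the files and GENCODE place it, so the Gpr37 window lies wholly and the Tmem229a window partly within the gene. A match is a description of letters and not a binding site.

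Ptprz1, the receptor phosphatase, stood at 1773, 1928 and 1756 CPM (counts per 1000000 counts of the library) in injury 1, 2 and 3, and at 10.5, 3.82 and 1770 CPM in control 1, 2 and 3. Control 3 lay inside the range of the injury libraries, and control 1 and control 2 lay far below it. Gpr37, the oligodendrocyte receptor, had 1026, 1051 and 1031 CPM in injury 1, 2 and 3, against 0.257, 1.27 and 954 CPM in control 1, 2 and 3. Its low values rest on 1 count in control 1 and 5 counts in control 2. Control 3 was the highest control and lay just below the lowest injury library.

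Tmeff1, the follistatin-like membrane protein, had 496, 586 and 536 CPM in injury 1, 2 and 3, and 1.28, 16.8 and 515 CPM in control 1, 2 and 3. Control 3 again lay inside the injury range. Control 1 and control 2 were both far below it and differed from each other, with 5 counts in control 1 and 66 in control 2.

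The other three genes kept clear counts in every library. Fut9, the Lewis x enzyme, had 1008, 1432 and 1247 CPM in injury 1, 2 and 3, and 423, 504 and 1182 CPM in control 1, 2 and 3. Slc44a1, the choline transporter, had 1264, 1332 and 1045 CPM in injury 1, 2 and 3, and 153, 221 and 991 CPM in control 1, 2 and 3. Tmem229a had 1040, 1283 and 1426 CPM in injury 1, 2 and 3, and 310, 165 and 995 CPM in control 1, 2 and 3. For all 3 genes control 1 and control 2 were the lowest libraries, and control 3 lay inside the injury range for Fut9 and just below it for Slc44a1 and Tmem229a.

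**Figure D1:**
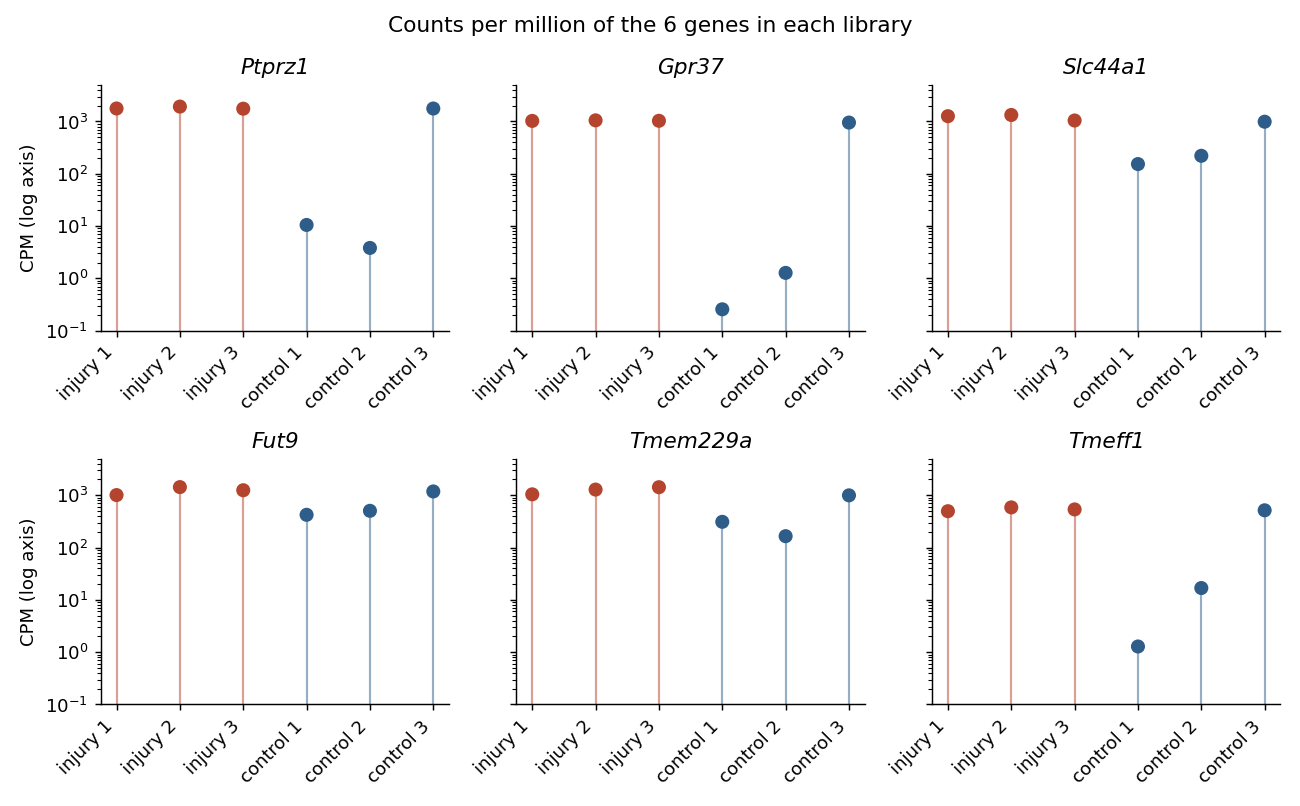
CPM (log axis) of each gene in injury 1 to 3 (red) and control 1 to 3 (blue), 1 point per library. Control 3 sits beside the injury libraries in all 6 panels, while control 1 and control 2 stand at 0.257 and 1.27 CPM for Gpr37 and at 423 and 504 CPM for Fut9.

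Group means hide this split. Ptprz1 averaged 1819 ± 94.8 CPM in injury and 595 ± 1018 CPM in control (SD, n = 3 each), so the control SD exceeded the control mean. The same held for Gpr37, with 1036 ± 13.4 CPM in injury and 319 ± 551 CPM in control, for Tmeff1, with 539 ± 45.2 CPM in injury and 178 ± 292 CPM in control, and for Slc44a1, with 1214 ± 150 CPM in injury and 455 ± 465 CPM in control. Fut9 averaged 1229 ± 213 CPM in injury and 703 ± 417 CPM in control. Tmem229a averaged 1250 ± 195 CPM in injury and 490 ± 443 CPM in control. All 3 injury libraries lay above all 3 controls for Gpr37, Slc44a1 and Tmem229a, 3 of the 6 genes. Of all 12646 tested features, 13.7% did so. Nothing is read from this share, because the genes were picked with these values known.

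With all 6 libraries, the log2 fold change of injury over control was 1.76 (SE 1.94) for Ptprz1, 1.85 (SE 2.24) for Gpr37, 1.76 (SE 1.69) for Tmeff1, 1.57 (SE 0.79) for Slc44a1, 1.47 (SE 0.77) for Tmem229a and 0.97 (SE 0.57) for Fut9. edgeR's quasi-likelihood test with Benjamini-Hochberg adjustment over all features called 0 of the 6 genes, where 0% of all 12646 features were called. In that test 3245 features had an unadjusted p under 0.05. DESeq2 called 1503 features, 18 higher and 1485 lower in injury, and limma-voom called 0. The median log2 fold change was 1.66 over the 6 genes and -0.04 over all tested features.

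Without control 3, which sets the injury libraries against control 1 and control 2, the log2 fold change was 10.86 (SE 0.52) for Gpr37, 8.35 (SE 0.74) for Ptprz1 and 6.56 (SE 0.87) for Tmeff1. It was 3.20 (SE 0.28) for Slc44a1, 2.78 (SE 0.51) for Tmem229a and 1.90 (SE 0.31) for Fut9. All 6 were called higher, where 30.2% of 15320 features were. Nothing is read from that count, since the genes were picked with these values known.

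Without control 1 and control 2, only control 3 remained on the control side, and its spread had to be taken from the injury group. The log2 fold change of injury over control 3 was then 0.46 (SE 0.19) for Tmem229a, 0.41 (SE 0.17) for Slc44a1, 0.24 (SE 0.16) for Gpr37, 0.19 (SE 0.17) for Tmeff1, 0.18 (SE 0.19) for Fut9 and 0.16 (SE 0.16) for Ptprz1. None of the 6 was called in edgeR's test, where 6.78% of 13857 features were called. So the size of the difference in every gene turns on which control libraries are set against injury.

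The summed injury libraries held a CPM that was 1.03-fold that of control 3 for Ptprz1 (95% exact interval 0.996 to 1.06, for counting error only), 1.04-fold for Fut9 (0.996 to 1.08) and 1.05-fold for Tmeff1 (0.983 to 1.11). The ratio was 1.09 for Gpr37 (1.04 to 1.14), 1.23 for Slc44a1 (1.18 to 1.29) and 1.24 for Tmem229a (1.19 to 1.30). The first 3 intervals include equality and the last 3 do not, but these intervals leave out the spread between libraries. Against control 1 the same ratio was 173 for Ptprz1 (128 to 241), 420 for Tmeff1 (180 to 1294), 7.97 for Slc44a1 (7.34 to 8.67), 3.99 for Tmem229a (3.76 to 4.24) and 2.90 for Fut9 (2.75 to 3.06). Against control 2 it was 476 for Ptprz1 (289 to 852), 32.0 for Tmeff1 (25.1 to 41.5), 5.54 for Slc44a1 (5.17 to 5.95), 7.51 for Tmem229a (6.93 to 8.14) and 2.43 for Fut9 (2.32 to 2.56). Gpr37, with 5 counts in control 2, gave 813 (348 to 2504), and the single count in control 1 gave 4038 with an interval from 725 to 159528.

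**Figure D2:**
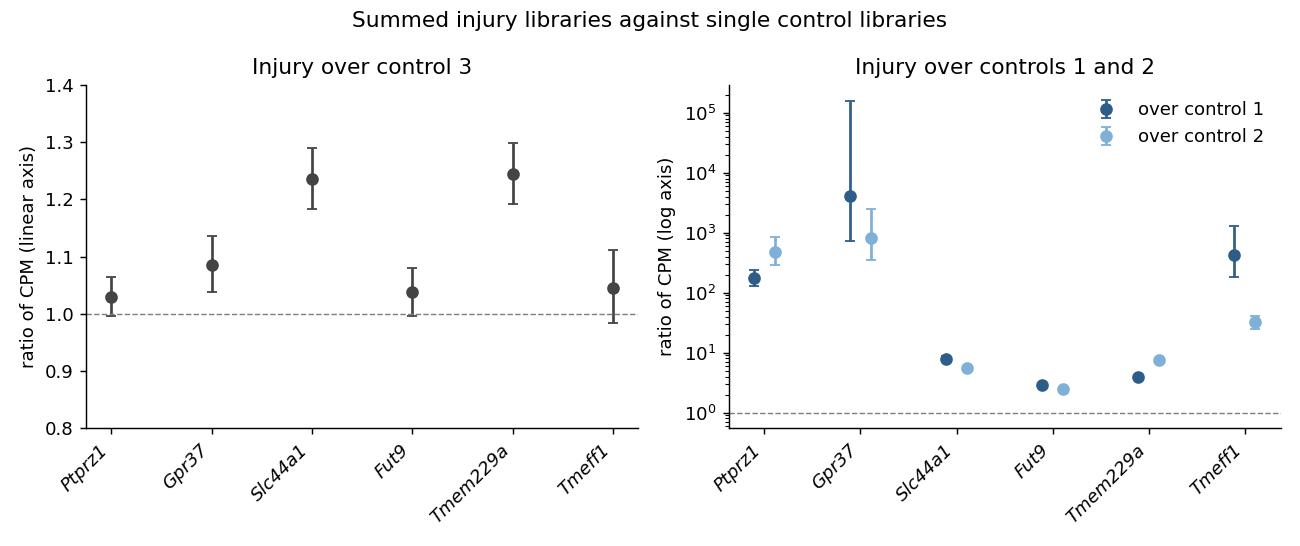
Ratio of CPM of the summed injury libraries to control 3 (left, linear axis) and to control 1 and control 2 (right, log axis), with exact 95% intervals for counting error as bars. The left ratios run from 1.03 for Ptprz1 to 1.24 for Tmem229a, and the right ones from 2.43 for Fut9 to 4038 for Gpr37.

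Control 1 and control 2 also differed from each other, and not in 1 direction. Tmeff1 was 13.1-fold higher in control 2 than in control 1 (exact 95% interval 5.35 to 41.7), Slc44a1 1.44-fold (1.29 to 1.60) and Fut9 1.19-fold (1.12 to 1.27). Ptprz1 was 2.75-fold higher in control 1 than in control 2 (1.49 to 5.35) and Tmem229a 1.88-fold (1.71 to 2.07). For Gpr37 the interval of control 2 over control 1 ran from 0.556 to 235 and includes equality.

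Within the injury group the spread is given beside counting error, though a coefficient of variation from 3 libraries is itself imprecise. The coefficient of variation over the 3 injury libraries was 1.29% for Gpr37, where counting error alone gives 1.89%. It was 5.21% for Ptprz1 and 8.38% for Tmeff1, against counting errors of 1.43% and 2.63%. It was 12.4% for Slc44a1, 15.6% for Tmem229a and 17.3% for Fut9, each with a counting error of 1.73% to 1.74%. Differences in spread between the genes were not tested. Fut9 and Tmem229a were lowest in injury 1, and Slc44a1 was lowest in injury 3.

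The proportions between genes were compared library by library. The ratio of Ptprz1 to Gpr37 in CPM was 1.73, 1.83 and 1.70 in injury 1, 2 and 3, and 41.0, 3 and 1.85 in control 1, 2 and 3. Those of control 1 and control 2 rest on the 1 and 5 counts of Gpr37. The ratio of Ptprz1 to Tmeff1 was 3.58, 3.29 and 3.28 in injury 1, 2 and 3, and 8.20, 0.227 and 3.43 in control 1, 2 and 3. The ratio of Slc44a1 to Tmem229a was 1.21, 1.04 and 0.733 in injury 1, 2 and 3, and 0.495, 1.34 and 0.995 in control 1, 2 and 3. Control 3 thus kept nearly the injury proportion of Ptprz1, Gpr37 and Tmeff1, while the proportion of Slc44a1 to Tmem229a varied within the injury group itself.

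Levels can be compared between genes only per length. With the exonic length given in the files, Tmem229a averaged 242 ± 37.8 RPKM (CPM per 1000 exonic bases) in injury (SD, n = 3), Tmeff1 211 ± 17.7, Slc44a1 175 ± 21.6, Gpr37 171 ± 2.20, Ptprz1 128 ± 6.65 and Fut9 88.9 ± 15.4 RPKM. The ranges of Tmem229a and Tmeff1 overlapped, as did those of Slc44a1 and Gpr37, and the other neighbours in this order did not overlap. In control 3 the levels ran from 202 RPKM for Tmeff1 to 85.5 RPKM for Fut9. In control 1 and control 2 the order was another one, with Tmem229a at 60.2 and 32.0 RPKM and Fut9 at 30.6 and 36.4 RPKM on top, and Gpr37 last at 0.0423 and 0.210 RPKM. With the length of the longest annotated transcript, the 14245 bases of Ptprz1 in the files became 8068. Ptprz1 moved up in the order to 225 ± 11.7 RPKM in injury, and Slc44a1 led on average with 277 ± 34.2 RPKM. In injury 3, however, Tmem229a was first, at 276 RPKM against 238 RPKM for Slc44a1. The injury ranges of Slc44a1 and Tmem229a overlapped with this length, as did those of Ptprz1, Tmeff1 and Tmem229a. In control 1 and control 2 Slc44a1 then stood at 35.0 and 50.4 RPKM, above Fut9 at 34.8 and 41.5 RPKM, and was first in control 2. Fut9 was lowest in injury with either length.

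**Figure D3:**
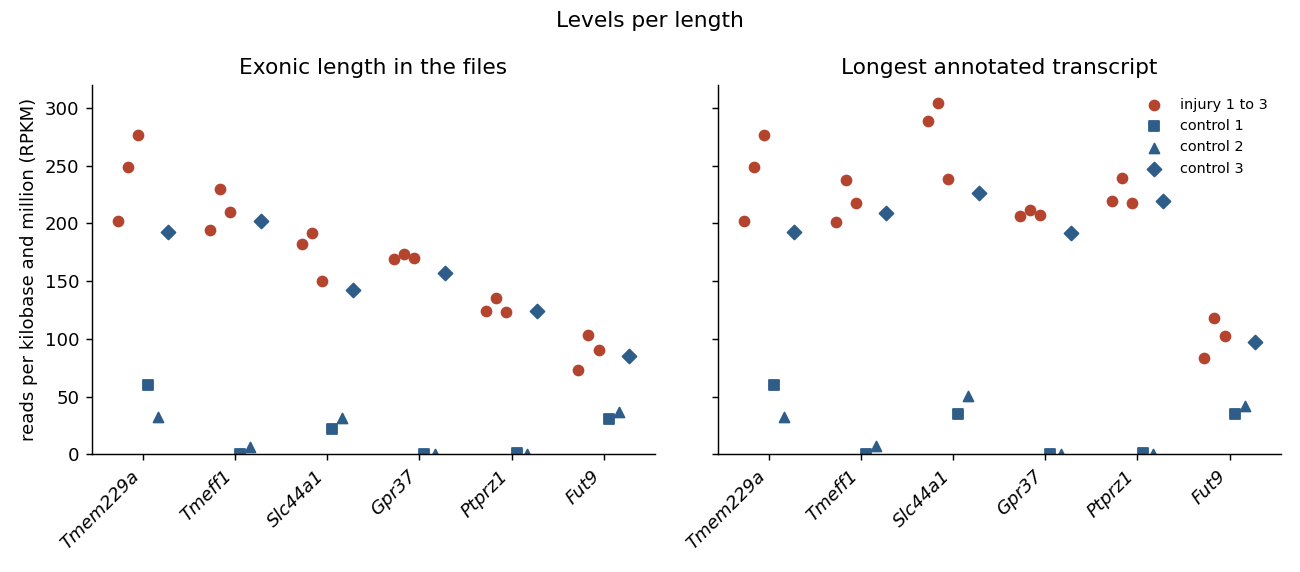
Level per length of each gene in RPKM, with the exonic length of the files (left) and the longest annotated transcript (right), 1 point per library, injury as red circles and controls as blue squares, triangles and diamonds. Fut9 is lowest in injury in both panels, and the order of the other genes changes with the length used.

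The features with the most similar pattern were taken from 372 features of at least 10 CPM on average whose names hold, by the smallest root mean square difference of log2(CPM + 1) over the 6 libraries after each feature's mean was removed. For Ptprz1 they were Gabbr2, which encodes a GABA-B receptor subunit (difference 0.31), and Pou3f2, a neural transcription factor (0.39). For Gpr37 they were Frrs1l, a protein of AMPA receptor complexes (0.43), and Dync1i1, a dynein intermediate chain (0.69). For Tmeff1 they were Faxc (0.16) and Gria4, an AMPA receptor subunit (0.19). Gria4 had 1236, 1442 and 1348 CPM in injury 1, 2 and 3, and 5.90, 62.5 and 1348 CPM in control 1, 2 and 3, with control 2 above control 1 as in Tmeff1. These neighbours of the 3 genes that were almost silent in control 1 and control 2 include genes of neurons. No gene of the glial marker lists below was among the 372 features, since none of their names holds. Glial markers of those lists could therefore not appear as neighbours, and no cell type is read from the neighbours.

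For Slc44a1 the most similar were Tspan12, a tetraspanin (0.18), and Nudt2 (0.20), and for Fut9 Usp45 (0.09) and Cav2, a caveolin (0.10). For Tmem229a they were Ndufa4 (0.14) and Ndufb6 (0.14), which encode mitochondrial respiratory chain proteins. Ndufa4 had 616, 695 and 773 CPM in injury 1, 2 and 3, and 187, 72.7 and 531 CPM in control 1, 2 and 3. Among the 6 genes themselves the smallest difference was 0.48, between Slc44a1 and Tmem229a, and the largest 3.71, between Gpr37 and Fut9. The measure takes in the gap of control 1 and control 2 from the rest, which all of these features share.

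**Figure D4:**
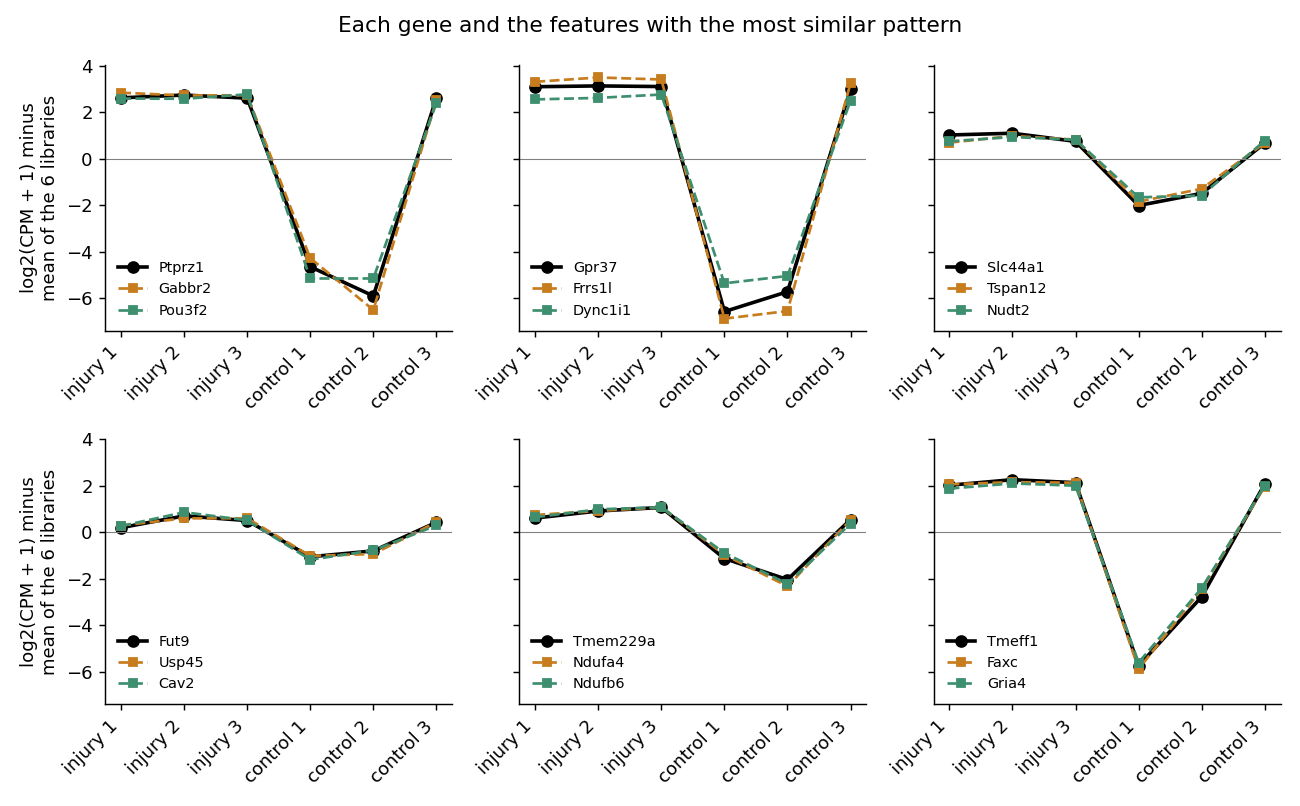
Pattern of each gene (black) and of the 2 features most like it (orange and green), as log2(CPM + 1) minus its mean over the 6 libraries, with injury 1 to 3 left of control 1 to 3. The dip in control 1 and control 2 is deep for Ptprz1, Gpr37 and Tmeff1 and shallow for Slc44a1, Fut9 and Tmem229a.

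Genes that work with these 6 were read by the gene whose exons a feature lies on, since none of their own names holds. Such a value covers part of a gene only. Of 11 ligands and partners of the Ptprz1 protein, 2 had such a feature, and both were called higher in injury without control 3, where 28.1% of 5456 genes were. The median log2 fold change was 8.12 over the 2 and -0.09 over all genes. Cntn1, the contactin that binds the Ptprz1 protein on neurons, had 219, 255 and 243 CPM in injury 1, 2 and 3, and 0, 2.55 and 226 CPM in control 1, 2 and 3. Tnr, which encodes tenascin R of the matrix around axons, had 226, 222 and 156 CPM in injury 1, 2 and 3, and 0, 1.02 and 181 CPM in control 1, 2 and 3. Receptor and partners were thus low in the same libraries.

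Of 6 proteoglycans that carry chondroitin sulphate in brain, 5 were tested without control 3, 3 were called higher and none lower, where 28.1% of all genes were higher and 31.8% lower. Their median log2 fold change was 5.29, against -0.09 over all genes. Cspg5, a proteoglycan of the nervous system, had 92.2, 88.5 and 80.1 CPM in injury 1, 2 and 3, and 1.54, 3.06 and 73.8 CPM in control 1, 2 and 3. Ncan, the proteoglycan neurocan, had 79.8, 65.3 and 71.7 CPM in injury 1, 2 and 3, and 0, 0 and 54.3 CPM in control 1, 2 and 3. Acan, the last of the 3 called, rests on 24, 20 and 5 counts in injury 1, 2 and 3. It had 0, 0 and 30 counts in control 1, 2 and 3, and is also listed as a disc and cartilage marker. Vcan, the matrix proteoglycan versican, did not pass, with 45.8, 45.3 and 25.6 CPM in injury 1, 2 and 3, and 8.73, 42.3 and 44.0 CPM in control 1, 2 and 3. Cspg4, known as NG2 of precursor cells, did not pass either, with 19.3, 9.48 and 12.6 CPM in injury 1, 2 and 3, and 9.75, 19.9 and 8.79 CPM in control 1, 2 and 3.

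Gpr37l1, the closest relative of Gpr37 and a receptor of astrocytes, had 470, 509 and 501 CPM in injury 1, 2 and 3, and 0, 0 and 386 CPM in control 1, 2 and 3. A count of 0 allows up to 0.770 CPM in control 1 and 0.765 CPM in control 2, for counting error only. Ednrb, the endothelin B receptor, had 113, 109 and 96.4 CPM in injury 1, 2 and 3, and 15.9, 29.8 and 104 CPM in control 1, 2 and 3. Of 4 relatives and ligands listed, these 2 were tested and both were called higher without control 3, where 28.1% of all genes were.

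Around choline, Slc5a7, the choline transporter of cholinergic neurons, had 20.3, 40.4 and 46.9 CPM in injury 1, 2 and 3, and 0, 0.255 and 30.2 CPM in control 1, 2 and 3. Chka, the kinase that starts phosphatidylcholine synthesis, went the other way, with 11.01, 10.9 and 10.5 CPM in injury 1, 2 and 3, and 137, 99.2 and 24.9 CPM in control 1, 2 and 3. Of 12 genes on this list 2 were tested, 1 was called higher and 1 lower without control 3. Of all genes, 28.1% were higher and 31.8% lower there, so nothing is read from these 2 calls. Of 9 other fucosyltransferases only Pofut1, which puts fucose on Notch receptors, was tested, and it was called lower, with 32.3, 30.6 and 32.3 CPM in injury 1, 2 and 3, and 50.3, 139.7 and 40.9 CPM in control 1, 2 and 3. Of 9 genes of TMEFF and Nodal signalling 0 were tested. Without control 1 and control 2, 0 genes of any of these lists were called, where 0.549% of 5100 genes were, and with all 6 libraries 0 of 4940 (0%) were called.

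Oligodendrocyte and neuron markers were low in the same libraries as the 6 genes, and kidney tubule markers were high there. Of 17 oligodendrocyte markers 7 had a feature, with a summed level of 3824 to 4049 CPM in the injury libraries and 218, 531 and 3543 CPM in control 1, 2 and 3. All 7 were called higher without control 3, where 28.1% of all genes were. Mal, a membrane protein of myelin and of epithelia, made up most of the sum in control 1 and control 2, with 1211, 1426 and 1327 CPM in injury 1, 2 and 3, and 157, 462 and 1273 CPM in control 1, 2 and 3. Cnp, an enzyme of myelin, had 1269, 1225 and 1131 CPM in injury 1, 2 and 3, and 12.3, 41.3 and 1034 CPM in control 1, 2 and 3. Mag, a myelin adhesion protein, had 499, 444 and 419 CPM in injury 1, 2 and 3, and 0.257, 1.27 and 376 CPM in control 1, 2 and 3. Cldn11, the tight junction protein of myelin, had 467, 369 and 348 CPM in injury 1, 2 and 3, and 0.513, 2.55 and 331 CPM in control 1, 2 and 3. The markers thus differed in how far they dropped in control 1 and control 2, as the 6 genes did. Of 13 neuron markers 6 had a feature, summing to 3344 to 4090 CPM in injury and 24.6, 36.2 and 3696 CPM in control 1, 2 and 3. Most of it was Map2, a microtubule protein of dendrites, with 2435, 3121 and 3032 CPM in injury 1, 2 and 3, and 15.9, 20.1 and 2708 CPM in control 1, 2 and 3. Of 9 kidney tubule markers 2 had a feature, summing to 2.10 to 4.57 CPM in injury and 1302, 397 and 3.44 CPM in control 1, 2 and 3. Of these Slc34a1, a phosphate transporter of the proximal tubule, had 828 and 122 CPM in control 1 and control 2 and 0 counts in control 3 and all injury libraries.

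Of 12 astrocyte markers 3 had a feature, summing to 81.1 to 98.1 CPM in injury and 201, 61.5 and 113 CPM in control 1, 2 and 3. Of these, 2 were called higher and 1 lower without control 3, where 28.1% of all genes were higher and 31.8% lower. Aldh1l1, a folate enzyme that also marks astrocytes, was the lower one, with 2.06, 5.27 and 6.71 CPM in injury 1, 2 and 3, and 181, 42.1 and 6.12 CPM in control 1, 2 and 3. Slc4a4, a bicarbonate transporter, had 58.8, 47.1 and 56.2 CPM in injury 1, 2 and 3, and 17.5, 10.96 and 65.8 CPM in control 1, 2 and 3. Slc1a3, a glutamate transporter, stood at 33.7, 28.8 and 35.2 CPM in injury 1, 2 and 3, and 3.08, 8.41 and 40.9 CPM in control 1, 2 and 3. The astrocyte sum was thus highest in control 1 through Aldh1l1, and the other markers were lowest in control 1 and control 2. Of 7 disc and cartilage markers 2 had a feature, Acan and Col11a2, summing to 41.1 to 67.8 CPM in injury and 1.03, 4.08 and 51.2 CPM in control 1, 2 and 3. Aif1, the 1 microglia marker of 8 with a feature, had 31.0, 15.5 and 9.64 CPM in injury 1, 2 and 3, and 0.513, 29.6 and 11.9 CPM in control 1, 2 and 3. For oligodendrocyte precursors 2 of 6 markers summed to 104 to 127 CPM in injury and 69.6, 397 and 104 CPM in control 1, 2 and 3. Most of this sum was Pdgfra, with 108, 94.8 and 93.5 CPM in injury 1, 2 and 3. It had 59.8, 377 and 95.2 CPM in control 1, 2 and 3, so the high sum of control 2 rests on this 1 gene.

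Muscle markers were highest in injury 3. The 4 muscle markers of 5 with a feature summed to 12.04, 2.11 and 138 CPM in injury 1, 2 and 3, and 2.57, 11.7 and 24.5 CPM in control 1, 2 and 3. The 2 Schwann cell markers of 5 summed to 9.64, 9.48 and 118 CPM in injury 1, 2 and 3, and 5.90, 31.1 and 3.82 CPM in control 1, 2 and 3. The high sum of injury 3 is the 114 CPM of Prx, a protein of Schwann cell myelin, since Ngfr had 5.51, 7.37 and 3.77 CPM in injury 1, 2 and 3. Of 4 blood markers 2 summed to 27.7 to 423 CPM in injury and 49.3, 282 and 369 CPM in control 1, 2 and 3. The 2 differed, with Hbb-bs at 394, 5.27 and 83.8 CPM in injury 1, 2 and 3, and 17.2, 37.7 and 347 CPM in control 1, 2 and 3. Ptprc had 28.9, 22.5 and 14.3 CPM in injury 1, 2 and 3, and 32.1, 244 and 21.8 CPM in control 1, 2 and 3. The oligodendrocyte sum was low in control 1 and control 2, but the astrocyte sum was highest in control 1 and the precursor sum in control 2. Fut9, Slc44a1 and Tmem229a kept clear counts in both libraries. The glial label of the 6 genes was thus not tested, and glia cannot be told apart from neurons or other cells in these bulk libraries. The part that tissue content plays in the values above was not tested.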

How the data were processed

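Counts per gene from 3 injury and 3 control libraries were used, grouped by the sample group label, with replicate numbers from the titles. The deposited values are raw counts that the authors obtained from featureCounts 2.0.1, per the file headers. Pairs needed both mates mapped, exons were added up per gene name, and strand was ignored, so antisense reads cannot be told apart. The submitters' processing notes name Bowtie 0.12.2, mm8 and mm9. The aligner of these counts and their genome build are not given in the sources used here. The label's protocol states Trizol extraction and an Illumina TruSeq kit.

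File exons were overlaid on GENCODE M21 (GRCm38) with bedtools 2.31.1. A name holds when at least 90% of a feature's exonic bases lie on that gene, and an overlying gene needs at least 100 shared bases, 90% of them on 1 gene. CPM and RPKM used library totals. The test was edgeR 4.0.16 (R 4.3.3, TMM, filterByExpr, quasi-likelihood, Benjamini-Hochberg, calls at 0.05) of injury against control over all features. It was tried on simulated data without the split of control 3 from control 1 and control 2, so that trial does not cover this split. Alternatives were other scalings, filters, DESeq2 1.42.0, limma-voom (limma 3.58.1), a replicate block and leaving out libraries. Exact intervals (scipy 1.17.1) and floors of 3 counts per library cover counting error only. A deposited table of the whole series was not used. The 6 genes and the lists were chosen with earlier results of these data known. The text names all 6 genes, the 2 most similar features of each, and members of a list from the up to 4 with the highest mean level, some lists by sums only.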

Additional observations from a re-analysis of the deposited data

How the results depend on the processing

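All 6 genes had a positive log2 fold change of injury over control under each of 18 settings run. Over scalings, filters and DESeq2 it ran from 1.60 to 1.82 for Ptprz1, 1.69 to 1.91 for Gpr37 and 0.75 to 1.13 for Fut9. The median of all tested features moved from -0.04 to -0.21 with upper quartile and -0.30 with total count scaling, to -0.22 with the filter of 1 CPM in 3 libraries and to -0.55 with no filter beyond 1 count. With the replicate block the value was 6.52 for Ptprz1, 8.62 for Gpr37 and 5.07 for Tmeff1, with limma-voom 5.80, 7.62 and 4.89, and with sample quality weights 8.17, 9.64 and 5.92; the cause was not tested. Deviations from the group means correlated at 0.06, -0.14 and 0.05 for the same replicate number, and at -0.18 to 0.23 for different numbers. With 3 libraries per group and control 3 far from control 1 and control 2, this cannot decide whether the numbers pair the libraries. The block called 0 features and 0 genes by overlying gene, as did the fit without it.

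The count of called features was 0 with all 6 libraries in edgeR, 1503 with DESeq2, 7042 with limma-voom and sample quality weights, and 939 without control 1 and control 2. Leaving out single libraries gave 0 to 10231, where 10231 is without control 3 and 0 without any other. By overlying gene it was 0, against 3272 without control 3, 28 without control 1 and control 2, and 447 with DESeq2. A call for the 6 genes rests on leaving out control 3 or on sample quality weights, 12 of 102 repeats, and the other 90 gave no change of call. DESeq2 gave no adjusted p for Ptprz1, Gpr37 and Tmeff1, and these repeats are counted among the 90 as not called. Of the DESeq2 calls, 1485 of the 1503 features and 446 of the 447 genes by overlying gene were lower in injury. Depth limits Gpr37 and Tmeff1 in control 1, at 1 and 5 counts.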
